A study of Mus musculus with 4 samples.

Results

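Cartilage matrix holds, besides its collagens, a set of proteoglycans and glycoproteins, and 8 of their genes were followed here by name: Acan, Hapln1, Matn1, Matn3, Matn4, Comp, Epyc, and Fmod. All 8 are among the 27998 genes of the count matrices. They were picked by name, with earlier results of these data known. The matrices come from droplet scRNA Seq of fetal thymic lobes at E13 to 13.5, with 1 library for each of 4 conditions. The WT carrier library is from wild-type mouse embryos (Tbx1+/+) whose dams received ethanol, the drug carrier. The other libraries are all from Tbx1neo2/neo2 embryos, whose Tbx1 gene has a neomycin cassette in an intron, so that they are hypomorphs and not nulls for this T-box factor of the pharyngeal apparatus. Their dams received ethanol (Tbx1neo2/neo2 carrier), minoxidil, a vasodilator, or prostaglandin E2 (PGE2). The embryos were from intercrosses of Tbx1+/neo2 mice, and lobes of hypoplastic tissue were pooled. The series' design text speaks of an embryo for each condition, whereas the methods speak of pooling, so the number of embryos behind each library is not known. No strain is named in the sources used here.

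In cartilage, aggrecan (Acan) is the proteoglycan whose sulfated chains hold water, and link protein (Hapln1) fixes it to hyaluronan. Matrilins (Matn1, Matn3, and Matn4) and cartilage oligomeric matrix protein (Comp) connect proteoglycans to collagen fibrils, and epiphycan (Epyc) and fibromodulin (Fmod) are small leucine-rich proteoglycans that bind fibrils. Sox9, with Sox5 and Sox6, is the transcription factor that starts chondrocyte differentiation and acts on enhancers of Acan and of Col2a1, the main cartilage collagen. Fibromodulin and Comp are also abundant in tendon, whose progenitors are marked by the factor Scx.

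Values below are given in the order WT carrier, Tbx1neo2/neo2 carrier, minoxidil, and PGE2 unless named. Each library had between 151740600 and 292687940 UMIs. The files held 11908, 11364, 3362, and 4471 cells, of which 29510 in all passed the limits of 200 genes or more and no more than 10% mitochondrial UMIs. The cells kept fell into 21 clusters, of which 7 were mesenchymal and held 2865, 6563, 1004, and 878 cells, or 25.0%, 61.4%, 31.4%, and 21.1% of each library's kept cells. All 8 mesenchymal markers were detected in this class in every library, with a summed level between 6523 and 8802 CPM (counts per 1000000 UMIs). Different clusters hold most of the class in each library. A cluster led by Lum, Kcnj8, and Abcc9 (pericyte-like) was the most frequent in the WT carrier library, with 1211 cells. In the Tbx1neo2/neo2 carrier library a Dcn and Igf1 cluster (capsular fibroblast-like) led with 1700 cells, followed by cluster 6, led by Tagln, Acta2, Eln, Rgs5, and Sox9 (1361), and by clusters that were proliferating-like (1240) and chondrocyte-like (1025). The kept cells of any 2 libraries shared 4 to 32 barcodes. Tbx1 itself had 2.28, 2.33, 2.46, and 1.14 CPM over all kept cells. The carrier libraries' intervals overlapped over all cells. In mesenchymal cells Tbx1 had 3.29 (2.82 to 3.83), 2.29 (2.0 to 2.60), 3.62 (3.0 to 4.33), and 2.02 (1.49 to 2.68) CPM, so that it was lower than in the WT carrier library in the Tbx1neo2/neo2 carrier and PGE2 libraries and not in the minoxidil library. Tbx1 levels thus do not check the genotype labels, and the cause of their differences was not tested.

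A level is the UMIs of a gene summed over the cells of a class, scaled to 1000000 UMIs of that class (CPM), and ranges in parentheses are exact 95% Poisson intervals for levels and exact binomial (Clopper-Pearson) intervals for shares of cells. With 1 library per condition there is no spread between embryos and no test. The intervals cover counting error only, and a difference between libraries cannot be told apart from one between embryos, litters, dissections, or captures. For a call, a ratio had to reach 1.5 in either direction with the intervals apart, among genes with 20 or more UMIs in both libraries together, and a sum of 0 was set at 3 counts. Gene positions are those of mm10 in GENCODE vM21. Before shares of cells were taken, each cell was reduced at random to 5000 UMIs (thinned), since the median mesenchymal cell had 16346, 13315, 30510, and 25316.5 UMIs.

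In mesenchymal cells, the genes for aggrecan, matrilin-4, and Comp were far higher in the Tbx1neo2/neo2 carrier library than in the WT carrier library, epiphycan was lower, and link protein and fibromodulin differed by less than 1.5-fold. In both drug libraries each of the 4 large differences had the opposite sign. The Tbx1neo2/neo2 carrier library is part of every comparison, so a value extreme in it would by itself give this turn of sign. Between the carriers, 7 of the 8 genes had enough UMIs, and 4 of them were called higher (Acan, Matn3, Matn4, and Comp), against 11.9% of the 16099 genes tested. Of the 7, 1 (Epyc) was called lower, where the share over all genes was also 11.9%. The median log2 ratio of the 7 was 3.77, with the WT carrier sum of Comp set at 3 counts, and that of all genes tested was 0.0073. The median of the 7 is the ratio of Matn3 itself, from 27 and 1 UMIs. In the Tbx1neo2/neo2 carrier library the Matn3 level over all mesenchyme could not be told apart from that of hematopoietic cells. Matn1 had too few UMIs to be compared.

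**Figure D1:**
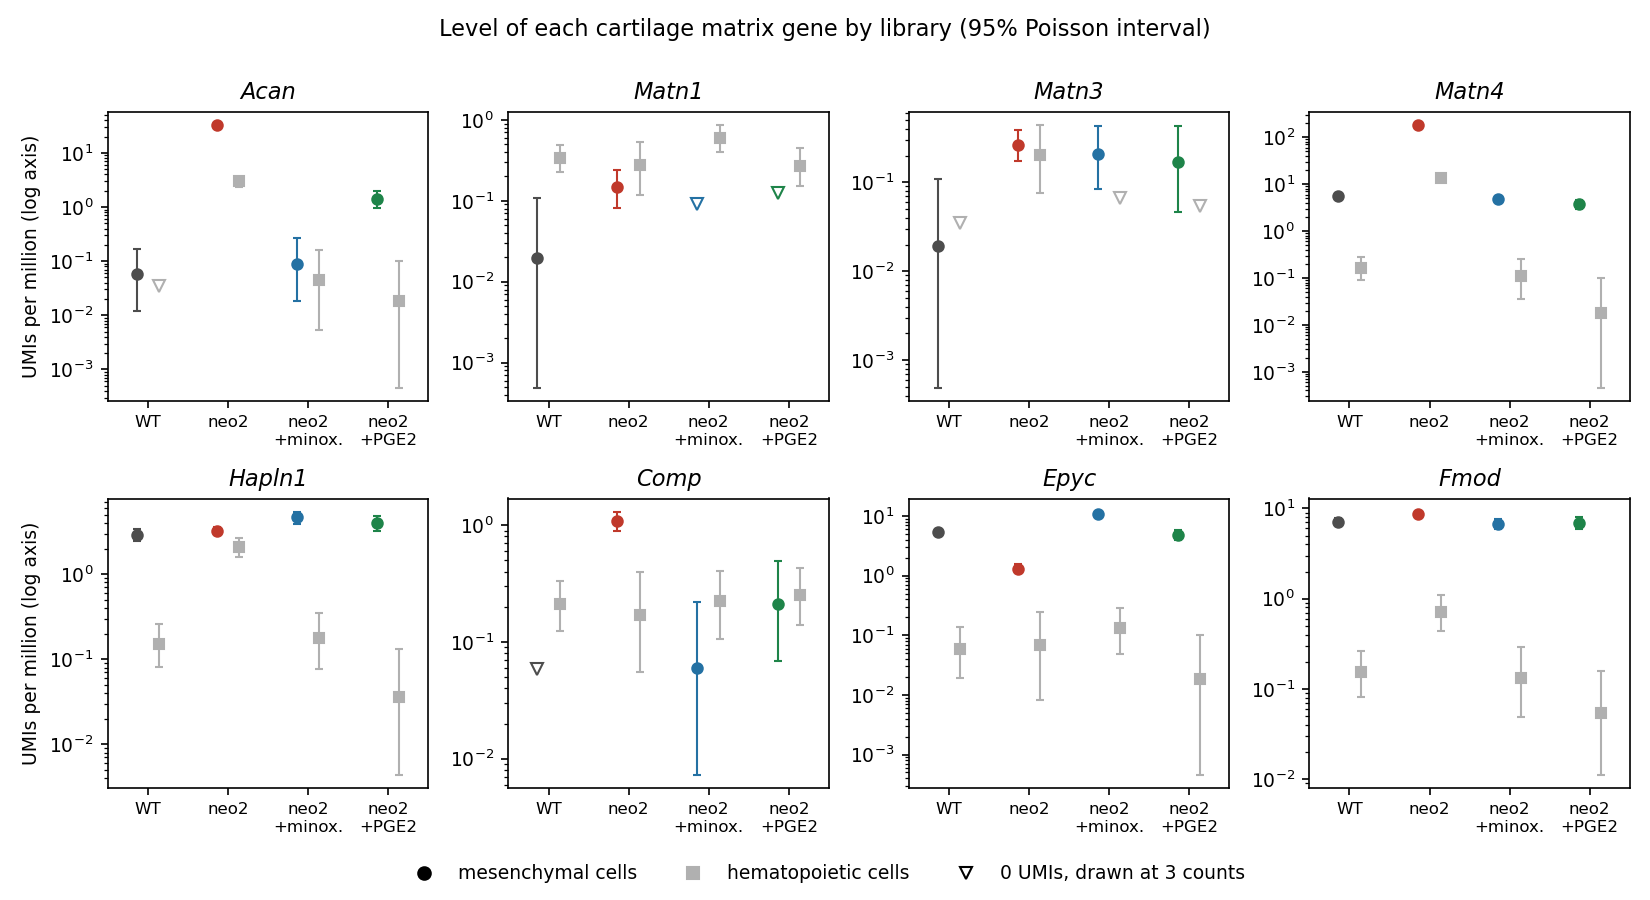
Level of each gene in CPM (log axis) in mesenchymal cells (circles) and hematopoietic cells (squares) of the 4 libraries, with 95% Poisson intervals. Open triangles stand for 0 UMIs and are drawn at 3 counts. Acan, Matn4, and Comp peak in the Tbx1neo2/neo2 carrier library (neo2), Epyc is lowest there, and Hapln1 and Fmod are nearly level.

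Acan (chr7:79053483-79115099, plus strand) had 3 UMIs in 3 of 2865 mesenchymal cells of the WT carrier library. It had 3303 UMIs in 882 of 6563 cells of the Tbx1neo2/neo2 carrier library. The minoxidil library had 3 UMIs in 2 of 1004 cells. The PGE2 library had 33 UMIs in 18 of 878 cells. The Tbx1neo2/neo2 carrier level, 32.3 CPM (31.2 to 33.4), thus stood apart from 0.058 (0.012 to 0.170), 0.091 (0.019 to 0.265), and 1.39 (0.956 to 1.95) CPM in the others. The log2 ratio of the carriers was 9.12 (7.57 to 11.39), an interval that is wide because the WT carrier sum was 3 UMIs. The PGE2 library alone of the other 3 had an Acan level whose interval lay above that of the WT carrier library.

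Matn4 (chr2:164389393-164405160, minus strand), a matrilin found in cartilage and in other loose matrices, was counted in every library. Its sums were 291, 18704, 161, and 88 UMIs. The corresponding levels were 5.64 (5.01 to 6.33), 183 (180 to 185), 4.86 (4.14 to 5.67), and 3.70 (2.97 to 4.56) CPM. In thinned cells it was detected in 2.39% (1.86 to 3.02), 40.1% (38.9 to 41.3), 2.02% (1.24 to 3.10), and 2.34% (1.43 to 3.59). Matn4 was thus also found where Acan was nearly absent, and the log2 ratio of the carriers was 5.02 (4.85 to 5.19).

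Epyc (chr10:97644068-97682454, plus strand) showed the opposite order. It had 279, 134, 354, and 115 UMIs, or 5.41 (4.79 to 6.08), 1.31 (1.10 to 1.55), 10.7 (9.60 to 11.9), and 4.84 (4.0 to 5.81) CPM. The Tbx1neo2/neo2 carrier library was lowest, the minoxidil library highest, and only the WT carrier and PGE2 levels had overlapping intervals. The log2 ratio of the carriers was -2.05 (-2.36 to -1.74). In thinned cells Epyc was found in 2.0%, 0.700%, 3.23%, and 2.92%. Its UMIs were concentrated in few cells, with 33.7%, 38.8%, 44.6%, and 60.9% of them in the 10 cells with the most.

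The 250 bases before the RefSeq transcription start (build GRCm38.p6) are shown for Acan and Matn4, which were high together, and for Epyc, which was low where they were high. Capitals mark the core letters that SOX factors are known to bind, searched on both strands: the letters CAAAG with an A or T before them, or the letters CAATG with an A or T before them, or the reverse complement of either. No other motif was searched.
Acan, chr7:79052976-79053225, plus strand: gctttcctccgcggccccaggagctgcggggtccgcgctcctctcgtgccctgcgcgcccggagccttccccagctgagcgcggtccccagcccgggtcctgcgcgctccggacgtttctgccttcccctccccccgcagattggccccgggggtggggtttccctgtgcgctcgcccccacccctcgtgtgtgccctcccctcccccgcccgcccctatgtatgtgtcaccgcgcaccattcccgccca
Matn4, chr2:164405161-164405410, minus strand: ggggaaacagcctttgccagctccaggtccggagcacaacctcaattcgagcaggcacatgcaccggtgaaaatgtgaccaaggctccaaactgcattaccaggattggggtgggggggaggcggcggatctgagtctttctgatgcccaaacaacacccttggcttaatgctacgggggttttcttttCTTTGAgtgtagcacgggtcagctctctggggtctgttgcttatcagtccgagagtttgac
Epyc, chr10:97643818-97644067, plus strand: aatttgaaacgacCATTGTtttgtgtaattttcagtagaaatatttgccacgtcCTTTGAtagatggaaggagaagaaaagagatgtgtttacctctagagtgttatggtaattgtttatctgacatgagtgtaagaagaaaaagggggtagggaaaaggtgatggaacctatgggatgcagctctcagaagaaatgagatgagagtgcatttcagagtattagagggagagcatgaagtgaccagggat
The Acan window is GC-rich (74.4%) and holds none of these words, the Matn4 window holds 1, and the Epyc window (39.2% GC) holds 2. RefSeq windows were matched for 7 of the 8 genes, all but Comp, and gave 9 windows, of which 3 held a word, the window shown for Matn4 and both windows of Epyc. A word occurred in 39.4% of the 32851 windows of all genes. A match here is a description of letters and not a binding site.

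Hapln1 (chr13:89539796-89611652, plus strand), which ties aggrecan to hyaluronan, did not follow Acan. Its sums were 149, 331, 154, and 95 UMIs. The levels were 2.89 (2.44 to 3.39), 3.23 (2.89 to 3.60), 4.65 (3.94 to 5.44), and 4.0 (3.24 to 4.89) CPM. The carrier intervals overlapped, and the log2 ratio was 0.16 (-0.12 to 0.45). In the Tbx1neo2/neo2 carrier library the hematopoietic cells had 2.08 CPM, 64.5% (48.2 to 84.9) of the mesenchymal level, and in the other 3 libraries at most 5.29% of it, and the part of this in the mesenchymal value was not tested. With at most 5% mitochondrial UMIs, which left 1097 and 1976 mesenchymal cells in the carrier libraries, the log2 ratio was 1.95 (1.23 to 2.76), so that Hapln1 would then be called higher.

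Fmod (chr1:134037254-134048277, plus strand), the fibril-binding proteoglycan of tendon and cartilage, differed by less than 1.5-fold in each comparison. It had 363, 883, 224, and 164 UMIs and levels of 7.04 (6.33 to 7.80), 8.62 (8.06 to 9.21), 6.76 (5.90 to 7.70), and 6.90 (5.89 to 8.04) CPM. The Tbx1neo2/neo2 carrier interval lay above the WT carrier interval, but the log2 ratio of 0.29 (0.12 to 0.47) did not reach 1.5-fold. Thinned cells with Fmod made up 2.39%, 3.45%, 2.73%, and 3.16%, with intervals that overlapped in every pair that involved a drug library.

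Comp (chr8:70373558-70382066, plus strand) was sparse. It had 0, 111, 2, and 5 mesenchymal UMIs, and the Tbx1neo2/neo2 carrier level was 1.08 (0.892 to 1.31) CPM. Against the 3 counts set for the WT carrier sum of 0, this was 18.6-fold higher. The log2 ratio was 4.22, with an interval from 3.90 upward. The other libraries' mesenchymal levels, at 0 to 0.210 CPM, were no higher than those of their hematopoietic cells, which had 18, 10, and 14 Comp UMIs in the WT carrier, minoxidil, and PGE2 libraries. The Tbx1neo2/neo2 carrier hematopoietic cells had 5 Comp UMIs, 15.8% (5.02 to 37.9) of the mesenchymal level. With 18 hematopoietic and 0 mesenchymal UMIs in the WT carrier library, hematopoietic cells are no clean background for Comp.

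Matn3 (chr12:8947929-8972028, plus strand), a matrilin of growth cartilage, had 1, 27, 7, and 4 UMIs, or 0.019, 0.264, 0.211, and 0.168 CPM. Its log2 ratio of 3.77 (1.17 to 9.12) between the carriers passed the rule for a call. The hematopoietic cells of the Tbx1neo2/neo2 carrier library had 6 UMIs, 77.7% (26.2 to 192) of the mesenchymal level, so that the level over all mesenchyme could not be told apart from background there. By cluster, Matn3 had 10 UMIs and 0.961 CPM (0.461 to 1.77) in cluster 9 of that library, above the 0.205 CPM of its hematopoietic cells. In the drug libraries it had 4 UMIs each in cluster 3, also above their hematopoietic cells, which had none. Matn1 (chr4:130944385-130955475, plus strand), the matrilin of mature cartilage, had 1, 15, 0, and 0 UMIs. The mesenchymal level of 0.146 CPM in the Tbx1neo2/neo2 carrier library did not exceed that of its hematopoietic cells, which had 187% (68.5 to 469) of it. The hematopoietic cells had 29, 8, 27, and 15 Matn1 UMIs, more than the mesenchymal cells in every library but the Tbx1neo2/neo2 carrier. They are thus no clean background for this gene, and whether mesenchymal cells express Matn1 was not tested.

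**Figure D2:**
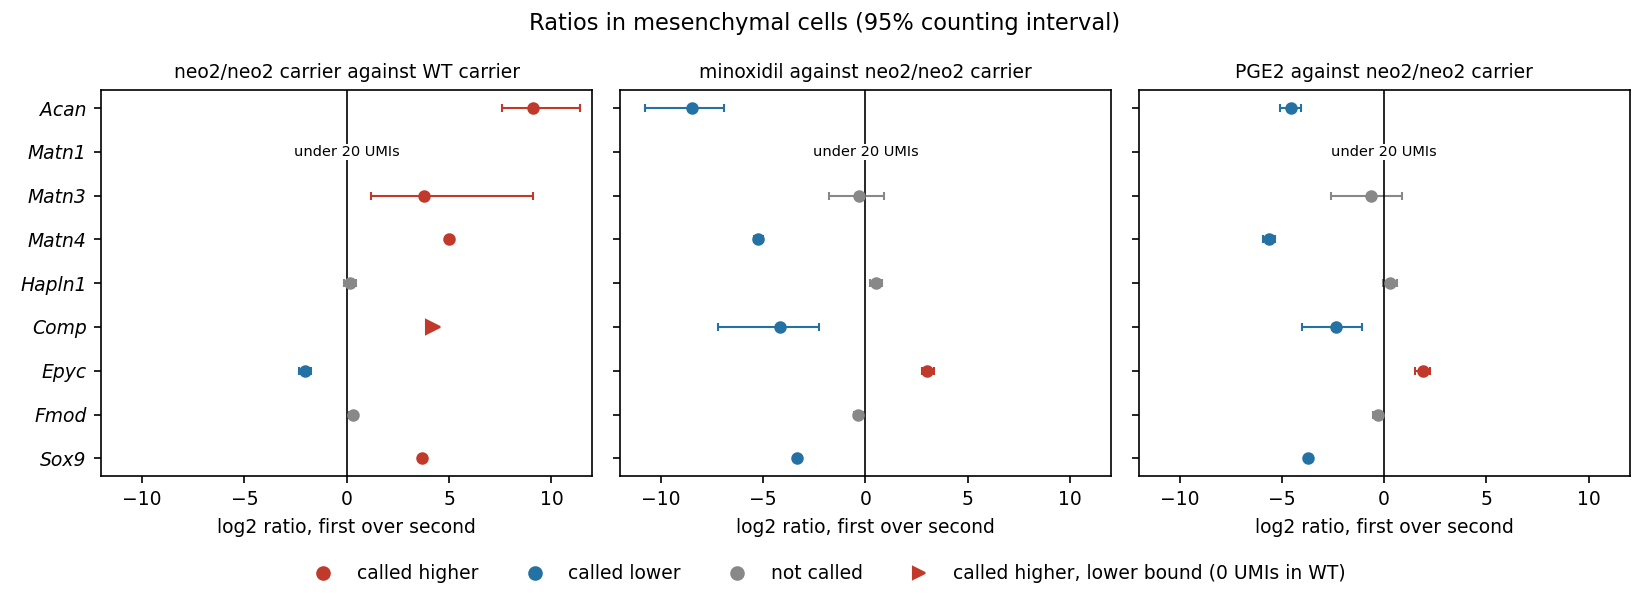
Log2 ratio of each gene and of Sox9 in mesenchymal cells, first library over second, with 95% counting intervals, for the 3 comparisons. Red marks a gene called higher, blue one called lower, and grey one not called. The triangle for Comp is the ratio with the WT carrier sum of 0 set at 3 counts. Acan, Matn4, Comp, and Sox9 lie right of 0 between the carriers and left of 0 in both drug comparisons, and Epyc lies on the other side each time.

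Both drug libraries were read against the same Tbx1neo2/neo2 carrier library, so the comparisons are not independent of each other. Nor are they independent of the comparison between the carriers, which holds that library too. With minoxidil, 3 of the 7 genes with enough UMIs were called lower, where the share over 15887 genes was 11.4%, and 1 was called higher, against 12.7%. The median log2 ratio of the 7 genes was -0.35, and that of all genes -0.018. The 3 lower genes were Acan with a log2 ratio of -8.48 (-10.76 to -6.93), Matn4 with -5.23, and Comp with -4.17 (-7.23 to -2.28). The higher gene was Epyc, at 3.03 (2.74 to 3.33). Hapln1, at 0.52 (0.24 to 0.80), Fmod, at -0.35, and Matn3, at -0.32, were not called.

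With PGE2, again 3 of the 7 genes were called lower, against 12.1% of 15761 genes, and 1 was called higher, against 11.6%. The median log2 ratio was -0.65, and that of all genes -0.062. Acan had a log2 ratio of -4.54 (-5.08 to -4.04), Matn4 of -5.62, and Comp of -2.36 (-4.02 to -1.10), while Epyc had 1.89 (1.52 to 2.26). Hapln1, at 0.31 (-0.04 to 0.64), Fmod, at -0.32, and Matn3, at -0.65, were not called. Acan and Comp, at 33 and 5 UMIs in the PGE2 library, were each less far below the Tbx1neo2/neo2 carrier level than with minoxidil, but this difference between the drugs was not tested.

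The cells of other types gave the background against which these values are read. In the Tbx1neo2/neo2 carrier library, hematopoietic cells carried 2.97 CPM of Acan and 13.2 CPM of Matn4, or 9.22% (7.36 to 11.4) and 7.22% (6.51 to 7.99) of the mesenchymal levels. Col1a1, a fibroblast collagen, stood at 9.05% there by the same measure, and Sox9 at 7.28%. Of the 87 hematopoietic Acan UMIs, 88.5% lay in 10 cells, so that they were not spread evenly over the class. Epithelial cells had 15% and 11% of the mesenchymal Acan and Matn4 levels, and erythroid cells 9.29% and 6.38%. Endothelial cells had the largest shares, 20.2% (14.6 to 27.4) and 16.2% (14.0 to 18.7). In the other 3 libraries, hematopoietic cells held 0 to 2 Acan UMIs and 1 to 14 Matn4 UMIs. The hematopoietic cells were deeper than the mesenchymal cells in every library, with medians of 35166, 25606, 61677.5, and 45821 UMIs. In thinned cells, at least 1 of the 8 genes was found in 0.706%, 4.56%, 0.733%, and 0.173% of hematopoietic cells. Sox9 was found in 1.41%, 6.74%, 0.293%, and 0.951% of them. Clusters that could not be named held 18.9%, 8.78%, 6.62%, and 8.62% of the kept cells, and in the Tbx1neo2/neo2 carrier library these had 92.7 CPM of Matn4 and 13.4 CPM of Acan.

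Among mesenchymal cells, by contrast, the share with at least 1 of the 8 genes was 7.83% (6.87 to 8.88), 43.7% (42.5 to 45.0), 10.1% (8.29 to 12.1), and 11.6% (9.51 to 13.9). At least 2 genes were found in 0.14%, 11.2%, 0.808%, and 0.234%. At least 3 were found in 109 of 6426 cells (1.70%) of the Tbx1neo2/neo2 carrier library and in none of the 2848, 990, and 855 cells of the others, where 3 counts would be 0.105%, 0.303%, and 0.351% and the exact binomial interval reaches 0.129%, 0.372%, and 0.431%. Detection of several of these genes in 1 cell was thus seen mostly in the Tbx1neo2/neo2 carrier library. Thinning left out 17, 137, 14, and 23 mesenchymal cells.

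**Figure D3:**
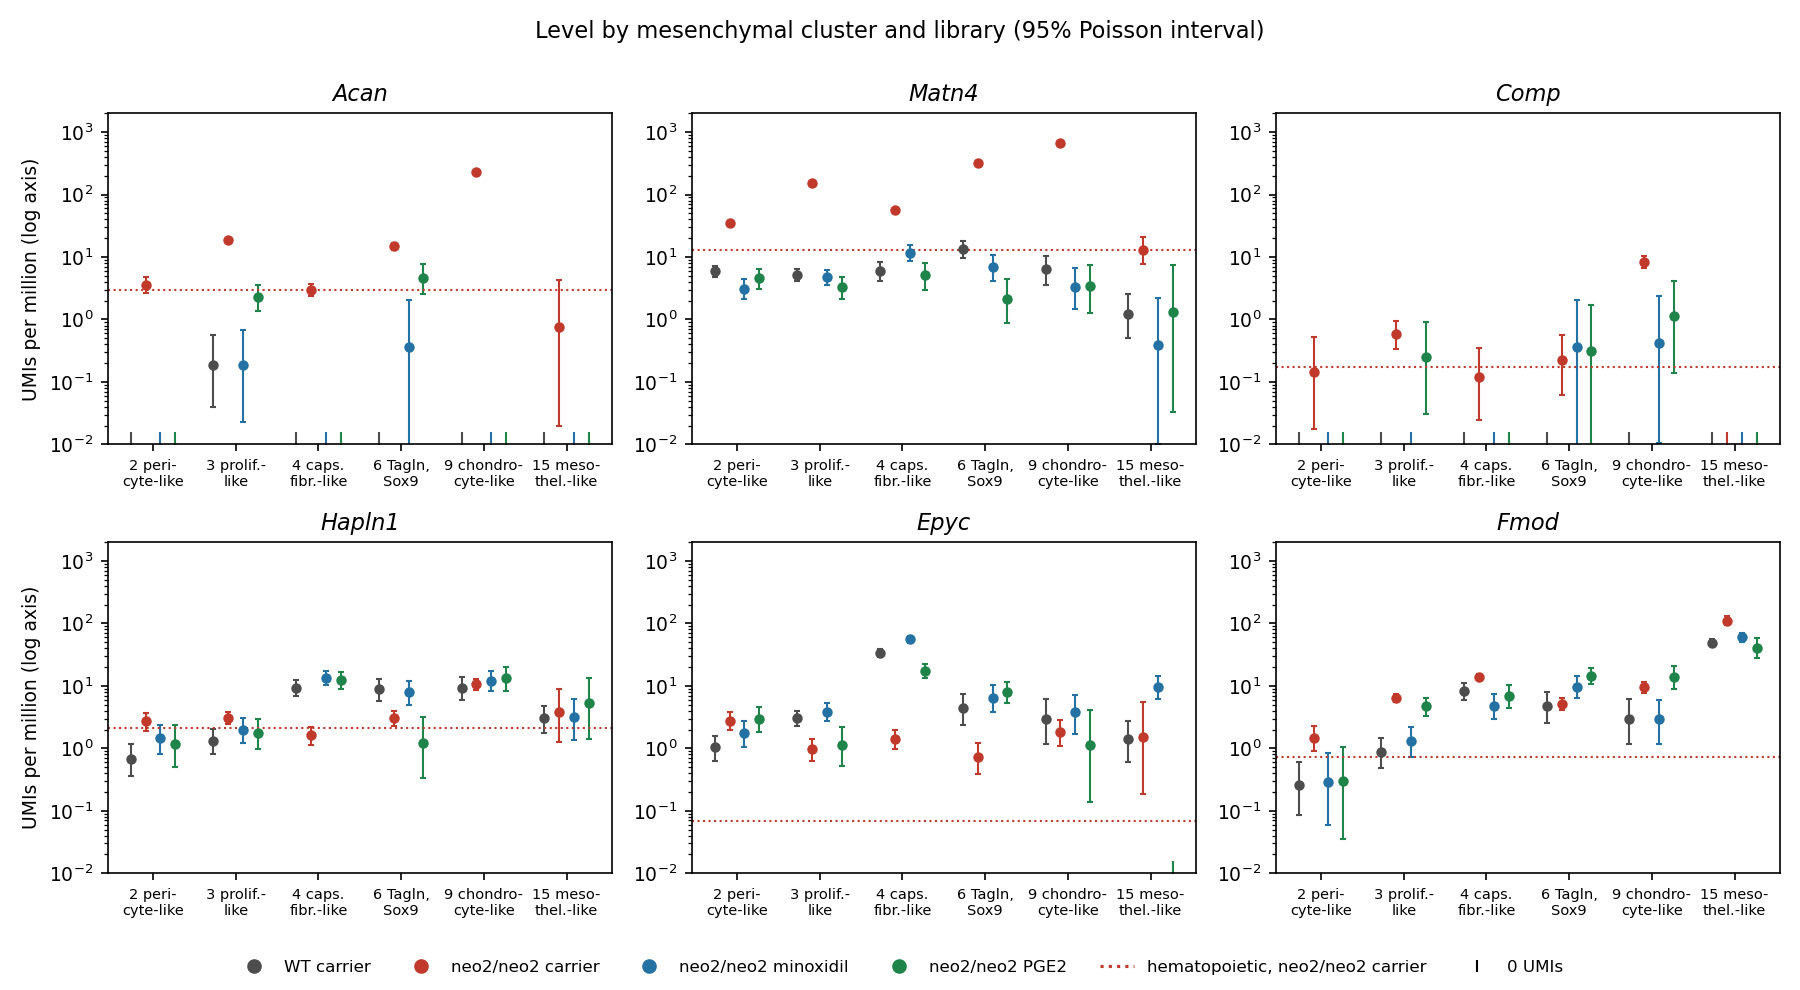
Level in CPM (log axis) of 6 genes in 6 mesenchymal clusters, by library (colour), with 95% Poisson intervals. The dotted line is the level in hematopoietic cells of the Tbx1neo2/neo2 carrier library, and ticks at the base are sums of 0. Acan stands above the line, with intervals apart, in clusters 3, 6, and 9 of that library, and Matn4 in clusters 2, 3, 4, 6, and 9. Epyc of the WT carrier and drug libraries is highest in cluster 4.

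The genes were spread over different clusters. The 8 genes were kept out of the genes used for clustering, but Acan and Matn4 were among the leading genes of the chondrocyte-like cluster 9, so the following is a description. Cluster 9 of the Tbx1neo2/neo2 carrier library had 229 CPM of Acan (220 to 239) and held 72.1% of its mesenchymal UMIs. The proliferating-like cluster 3 had 18.7 CPM and cluster 6 had 14.8 CPM. Cluster 6 held markers of smooth muscle and of cartilage among its 10 leading genes. In the Tbx1neo2/neo2 carrier library it had 910 CPM of Sox9, in 95.9% of its cells, and 441 CPM of Col2a1, in 70.5%, and in the WT carrier library 44.1 CPM of Sox9 and no Col2a1 UMI. At resolution 0.6 a second chondrocyte-like cluster, led by Col2a1 and Sox9, held 872 cells of the Tbx1neo2/neo2 carrier library, and a smooth muscle-like cluster held 523. In clusters 2, 4, 15, and 16 the Acan level, at 0.769 to 3.57 CPM, overlapped that of hematopoietic cells. By this hematopoietic level, Acan above background was seen in 3 of the 7 clusters. Most hematopoietic Acan UMIs lay in a few cells, so the count could differ with another background, which was not tested.

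Matn4 reached further. It had 658 CPM in cluster 9, 317 in cluster 6, 154 in cluster 3, 56 in the capsular fibroblast-like cluster 4, and 34.8 in the pericyte-like cluster 2. All 5 levels lay above the hematopoietic level, and those of the mesothelial-like cluster 15 and the myogenic-like cluster 16 overlapped it. Cluster 9 held 36.6% of the Matn4 UMIs, cluster 6 held 30.5%, and cluster 3 held 22.3%. Comp was concentrated further, with 77.5% of its 111 UMIs and 8.27 CPM (6.61 to 10.2) in cluster 9. Cells placed in cluster 9 in the other libraries, 174, 88, and 82 in number, had no Acan UMI and had Matn4 levels of 6.36, 3.36, and 3.45 CPM, near those of their whole mesenchyme. Those cells had 3192, 3719, and 4375 CPM of Col1a1 against 916 in the Tbx1neo2/neo2 carrier library, so that the cells placed there differed between libraries in this fibroblast collagen as well.

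Epyc of the WT carrier and drug libraries was highest in cluster 4, led by Dcn and Igf1, where it had, in the usual order, 33.9 CPM (29.2 to 39.2), 1.41 (0.98 to 1.96), 55.9, and 17.3 CPM. In the WT carrier library, cluster 4 held 65.6% of its mesenchymal UMIs with 347 cells, and in the Tbx1neo2/neo2 carrier library 26.1% with 1700 cells. The cells placed in cluster 4 also differed between libraries in Col1a1, with 3450, 1701, 4004, and 4415 CPM. Without integration, the capsular fibroblast-like cells formed a cluster with 6 WT carrier and 2730 Tbx1neo2/neo2 carrier cells and another with 344 and 122, and whether the cells of cluster 4 are alike between libraries was not tested. Hapln1 in cluster 4 was also lower in the Tbx1neo2/neo2 carrier library, with 9.27, 1.61, 13.5, and 12.5 CPM, and in cluster 9 it was even, with 9.32, 10.6, 12.2, and 13.2 CPM. Its near-equal level over all mesenchyme was therefore made up of unequal levels by cluster.

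Fmod was highest in the mesothelial-like cluster 15, with 49.4, 111, 60.3, and 40.8 CPM. This cluster of 268, 53, 63, and 26 cells held 76.9% of the Fmod UMIs in the WT carrier library and 16.3% in the Tbx1neo2/neo2 carrier library. In the latter, cluster 4 held 39.5%, with 14.0 CPM against 8.16 in the WT carrier library. Cluster 3 had 6.42 CPM of Fmod there against 0.887. Fmod thus had nearly the same total level in the carriers, with most of its UMIs in different clusters.

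Sox9 was detected with these genes unevenly. Its level was 32.0, 414, 40.4, and 30.9 CPM in mesenchymal cells, and it was found in 14.2%, 59.6%, 15.5%, and 11.5% of thinned cells. In the Tbx1neo2/neo2 carrier library, 586 of 627 cells with Acan also had Sox9 (93.5%, 91.2 to 95.3), against 56% (54.7 to 57.2) of cells without it. Of 2579 cells with Matn4, 88.0% (86.7 to 89.2) had Sox9, against 40.6% (39.0 to 42.1). Of 53 cells with Comp, 51 had Sox9 (96.2%), against 59.3%. Hapln1 showed a smaller difference, with 74.6% (65.6 to 82.3) against 59.3%. Fmod showed none beyond counting error, with 64.0% (57.3 to 70.3) against 59.5%. For Epyc the order was turned in this library, with 33.3% (20 to 49.0) of 45 cells against 59.8% of the cells without it.

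**Figure D4:**
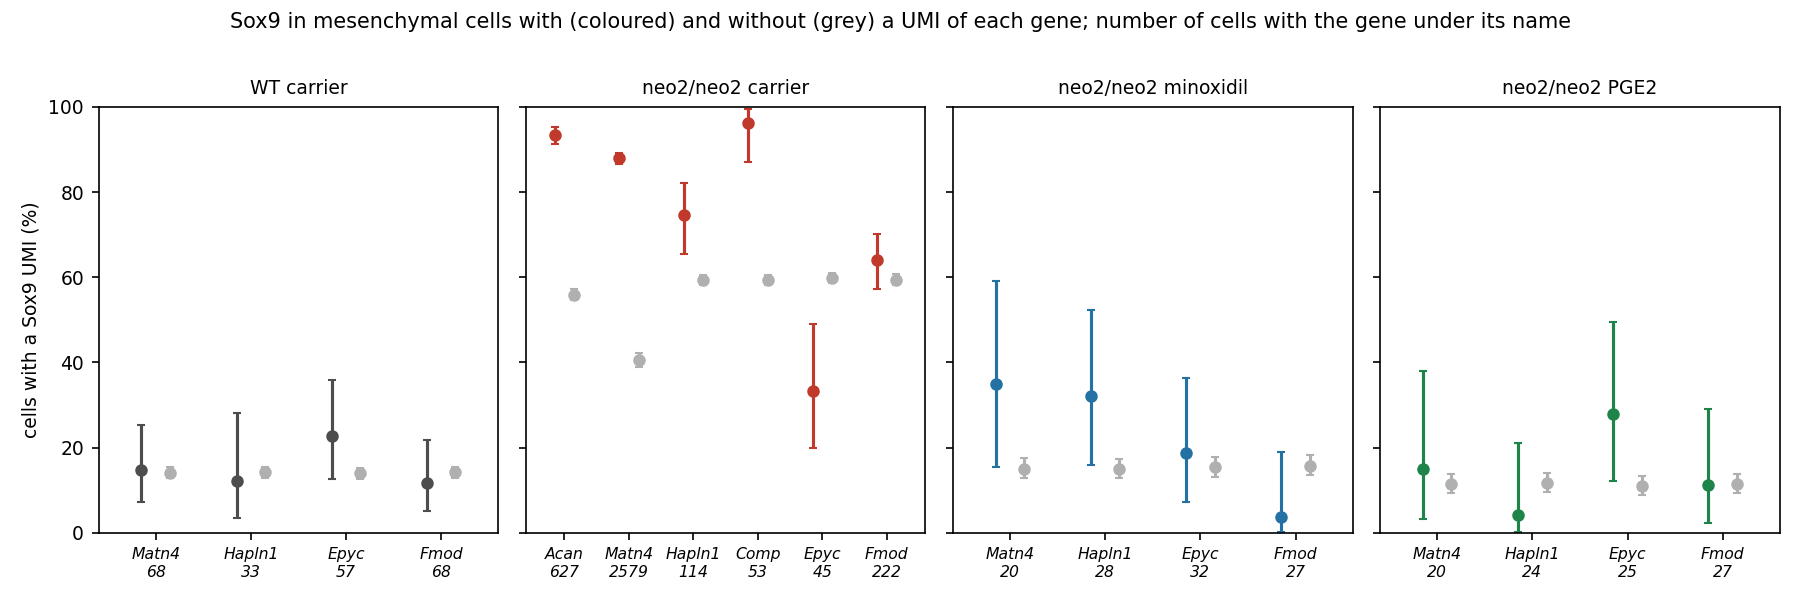
Share of thinned mesenchymal cells with a Sox9 UMI, in cells with each gene (coloured) and without it (grey), with 95% binomial intervals, for genes found in at least 20 cells of a library. The number of cells with the gene stands under its name. The intervals part for Acan, Matn4, Hapln1, Comp, and Epyc in the Tbx1neo2/neo2 carrier library, and of these genes only Epyc had Sox9 less often in its cells.

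In the other libraries the co-detection was weak or absent. Of cells with any of the 8 genes, 15.7% (11.2 to 21.1), 21.0% (13.5 to 30.3), and 14.1% (7.95 to 22.6) had Sox9 in the WT carrier, minoxidil, and PGE2 libraries, against 14.0%, 14.8%, and 11.1% of the other cells. Matn4-positive cells of the WT carrier library had Sox9 in 14.7% against 14.1%. With 20 cells in each drug library, the shares were 35.0% (15.4 to 59.2) against 15.1% with minoxidil and 15% against 11.4% with PGE2. The Matn4 signal of the WT carrier library therefore had no preference for Sox9-positive cells that this depth could show. Epithelial cells of the WT carrier, minoxidil, and PGE2 libraries had 75.4, 75.5, and 73.8 CPM of Sox9, above their mesenchymal levels. The part of epithelial RNA in the mesenchymal Sox9 detection was not tested.

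Within single clusters of the Tbx1neo2/neo2 carrier library the difference held for Matn4. The share with Sox9 was 65.2% against 32.7% in cluster 2, 87.0% against 40.1% in cluster 3, 67.8% against 36.3% in cluster 4, 93.9% against 81.4% in cluster 6, and 90.4% against 65.6% in cluster 9. All 5 pairs of intervals lay apart. Acan had 93.3% against 55.7% in cluster 3 and 93.4% against 80.3% in cluster 9. In cluster 6 it had 95.1% (86.3 to 99.0) against 89.8% (88.0 to 91.4), which overlapped.

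Detection also went with the number of Sox9 UMIs per thinned cell. In the Tbx1neo2/neo2 carrier library, 2595 cells had no Sox9 UMI, 1001 had 1, 1242 had 2 to 3, and 1588 had 4 or more. Over these steps Matn4 was found in 11.9%, 35.4%, 54.0%, and 78.4%, and Acan in 1.58%, 6.49%, 12.2%, and 23.2%. Hapln1 went from 1.12% to 3.02%. Epyc was found in 1.16% of the cells without Sox9 and in 0.441% of those with the most, and Fmod in 3.08% and 3.34%. In the WT carrier, minoxidil, and PGE2 libraries, Epyc was found in 1.80%, 3.11%, and 2.38% of cells without Sox9. Cells with 1 Sox9 UMI had Epyc in 3.05%, 3.64%, and 8.33%, with overlapping intervals, so the turned order was not seen there.

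The cells with Acan and those with Matn4 alone differed in other genes. In thinned cells of the Tbx1neo2/neo2 carrier library, 597 cells had both, 30 had Acan without Matn4, 1982 had Matn4 without Acan, and 3817 had neither. Col2a1 was found in 94.8%, 60.4%, and 10.6% of cells with both, with Matn4 alone, and with neither. Cnmd, which encodes the cartilage protein chondromodulin, was found in 48.4% of cells with both and 20.1% with Matn4 alone. Gdf5, a growth factor of joint-forming tissue, had the reverse order with 9.88% and 20.2%. Hoxa7, a homeobox gene of the trunk, was found in 2.85% of cells with both, 38.7% with Matn4 alone, and 19.9% with neither. Comp was found in 7.20% of cells with both and 0.353% of cells with Matn4 alone.

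The Hox difference was seen inside clusters 3 and 6 and not in clusters 4 and 9. In cluster 3, Hoxa7 was found in 8.33% (2.76 to 18.4) of cells with Acan and 31.7% (29.0 to 34.5) of cells without it, and in cluster 6 in 6.56% and 46.6%. In cluster 9, which held 485 of the 627 cells with Acan, Hoxa7 was rare with and without Acan, at 0.825% (0.225 to 2.10) and 1.51% (0.655 to 2.96). In cluster 4, 11 cells had Acan, and the share was 54.5% (23.4 to 83.3) with it and 26.8% (24.7 to 29.0) without it, which overlapped. With Matn4 the order in cluster 3 was the opposite, 41.9% against 23.8%. Mki67, a marker of cycling cells, was found in 9.89% of Acan-positive and 19.9% of Acan-negative cells. Scx, the tendon progenitor factor, was found in 60.7% of Matn4-positive and 32.8% of Matn4-negative cells. Cells with Fmod had Scx more often than cells without it in the WT carrier library (41.2% against 5.61%) and the Tbx1neo2/neo2 carrier library (65.8% against 43.2%). In the WT carrier library most Fmod UMIs lay in the mesothelial-like cluster. Whether the Scx differences hold inside clusters was not tested.

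The few Acan-positive cells of the other libraries seldom had Sox9, by all their UMIs without thinning. All 18 in the PGE2 library had Acta2, which encodes smooth muscle actin, and Eln, which encodes elastin, against 46.9% and 70.6% of the cells without Acan. Of the 18, 10 had Fmod, 2 had Sox9, 2 had Col2a1, and none had Matn4 or Hoxa7. They lay in clusters 3 and 6, with 18 and 15 UMIs. Of the 882 in the Tbx1neo2/neo2 carrier library, 868 had Sox9, 869 had Matn4, and 862 had Col2a1. Acta2 was found in 17.7% of them, against 39.3% of the cells without Acan, and Eln in 77.3% against 39.4%. None of the 3 WT carrier and 2 minoxidil cells had Sox9. The PGE2 cells were deep, with a median of 41925.5 UMIs against 25084.5 in the cells without Acan.

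The neighbours of these genes in cartilage were read by counts over lists, beside the background shares given above. Of the 7 cartilage collagens with enough UMIs, 7 were higher in the Tbx1neo2/neo2 carrier than the WT carrier library, led by Col2a1 (log2 ratio 7.98) and Col9a3 (6.38). Of 10 other cartilage proteins, 9 were higher and none lower, among them Snorc (7.97) and Mia (7.81). Of 10 chondrogenic regulators, 7 were higher, with Gdf5 at 4.63, Runx2 at 4.55, and Sox9 at 3.69, and 1 was lower. Of 20 relatives of the 8 genes, 9 were higher, with the leucine-rich repeat protein chondroadherin (Chad) at 6.90 and the thrombospondin Thbs4 at 5.26, and 2 were lower, Dcn at -0.95 and Matn2 at -1.66. The family of the matrilins thus held genes of both signs.

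Genes of glycosaminoglycan synthesis moved less. They hold enzymes that make the sulfated chains, and also a sulfate transporter and a hyaluronan synthase. Of 11, 6 were higher and none lower, with Papss2, which makes the sulfate donor, at 1.68 and the chain-starting Xylt1 at 1.53. Of 8 genes of matrix degradation, 3 were lower, among them Adamts5, an aggrecan-cleaving protease, at -2.09, and 1 was higher. Of 5 tendon genes, 4 were higher, with Mkx at 5.71 and Scx at 3.06. Of 18 genes of regional identity, 14 were higher and 2 lower, with Hoxc8 at 11.77, from 1 UMI in the WT carrier library and 6952 in the Tbx1neo2/neo2 carrier library. The summed level of the chondrocyte markers was 131, 1306, 147, and 99.1 CPM, that of the tendon markers 24.6, 255, 17.1, and 13, and that of the smooth muscle markers 433, 614, 730, and 2562, and their part in the values of the 8 genes was not tested.

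Against the shared Tbx1neo2/neo2 carrier library the lists turned in both drug libraries. With minoxidil and with PGE2, 7 of 7 cartilage collagens and 9 of 10 other cartilage proteins were lower and none higher. Col2a1 was at -7.25 and -8.06, and Mia at -6.40 and -6.69. Of the regulators, 7 of 10 were lower and 1 higher with each drug, and Sox9 was at -3.36 and -3.74. Adamts5 was higher with each, at 2.13 and 2.13, and Papss2 lower, at -1.46 and -1.13. Of the tendon genes, 4 of 5 were lower with each.

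Some of the genes were also counted outside mesenchyme. Hapln1 was highest in endothelial cells, with 29.2 (25.9 to 32.9), 12.7 (10.1 to 15.8), 33.1 (28.5 to 38.1), and 38.4 (32.3 to 45.2) CPM. It was found in 14.8% (10.1 to 20.7), 5.49% (2.67 to 9.87), 7.32% (2.73 to 15.2), and 9.09% (3.41 to 18.7) of 189, 182, 82, and 66 thinned endothelial cells, and without thinning in 47.8%, 18.8%, 32.3%, and 34.3% of 203, 245, 99, and 99. By level the Tbx1neo2/neo2 carrier library was the low one, with a log2 ratio to the WT carrier library of -1.20 (-1.57 to -0.84), and the intervals of the other 3 libraries overlapped. Matn1 was highest in the 86 parathyroid-like cells, which were found in the WT carrier library alone, with 47 UMIs in 23 cells and 17.6 CPM (12.9 to 23.4). Neither Acan nor Matn4 had a UMI in those parathyroid-like cells. Comp had 32 UMIs in 8 of 99 endothelial cells of the PGE2 library, 15 of them in a single cell, or 8.65 CPM (5.92 to 12.2) against 0.210 in its mesenchymal cells, and at most 4 endothelial UMIs in the other libraries.

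**Figure D5:**
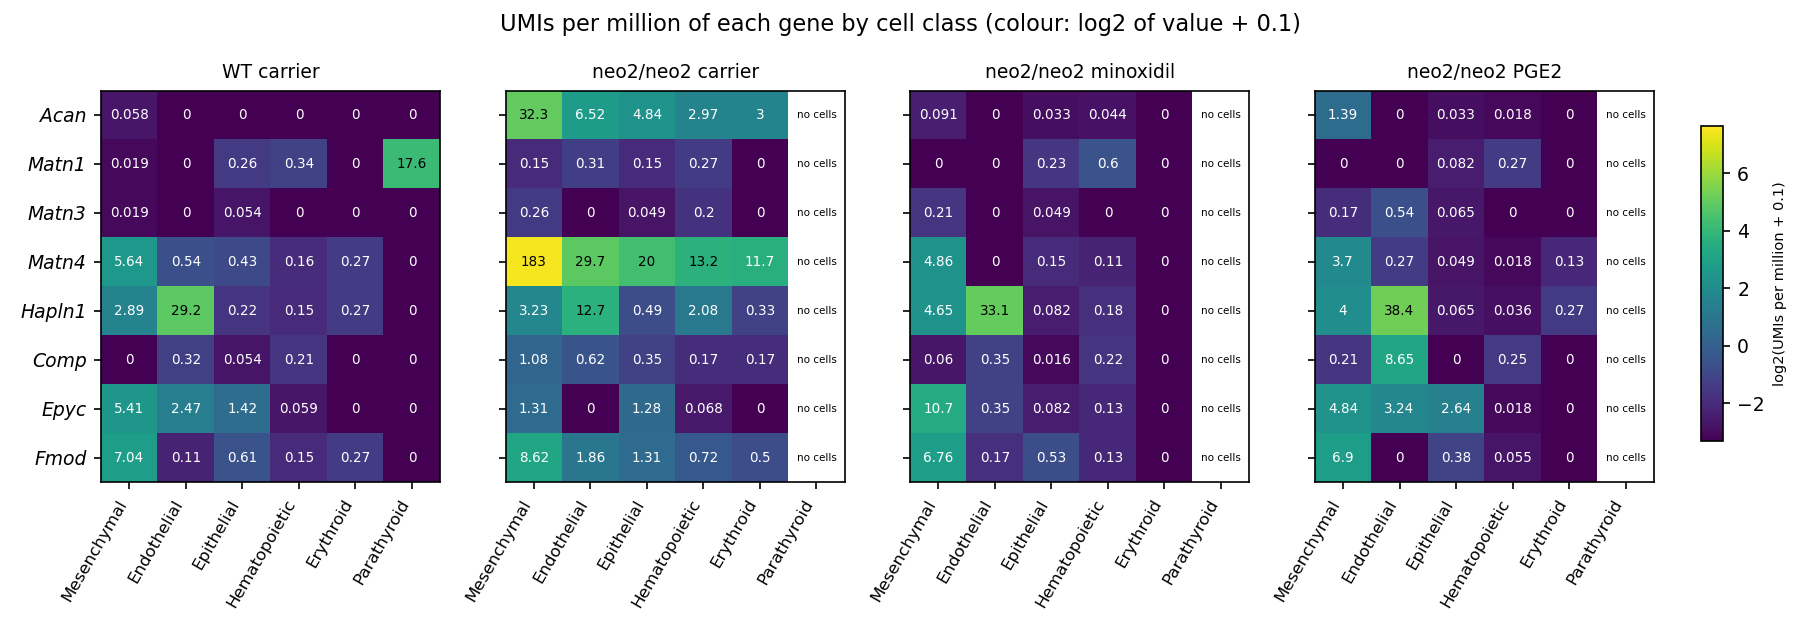
Level in CPM of each gene (rows) by cell class (columns) in the 4 libraries, with colour on the scale log2 of the level plus 0.1. Acan and Matn4 are highest in mesenchymal cells of the Tbx1neo2/neo2 carrier library and lower in all its other classes, Hapln1 is highest in endothelial cells of every library, and Matn1 in the parathyroid-like cells of the WT carrier library.

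Over 70 sums by library and cluster, the genes whose level most resembled that of each gene were ranked among 15602 genes by Pearson's r, as a description. These points share libraries and depth. For Acan they were Susd5 (r = 0.935), Mia (0.929), Mkx (0.843), Matn4 (0.841), and Kcns1 (0.836). Matn4 lay nearest to Tbx3os1 (0.909) and Gdf5 (0.904). Hapln1 lay nearest to Hspa12b (0.860), Procr (0.857), Aqp1 (0.843), Cavin2 (0.842), and Hmcn1 (0.839), several of which are known from endothelium. Fmod lay nearest to Tcea3 (0.908) and Fgf2 (0.904), and Epyc, with the weakest likeness, to Gabra2 (0.761). Between members, r was 0.841 for Acan and Matn4, 0.131 for Acan and Hapln1, and -0.015 for Acan and Epyc.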

How the data were processed

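For each library, the authors deposited UMI counts per gene and cell, without normalization. They were made with Cell Ranger 5.0.1 on mm10 per the submitters' processing notes, which also name Seurat, and the chemistry, annotation, and intron setting are not given in the sources used here. Libraries were integrated by anchors in Seurat 5.3.0 (R 4.3.3) on 2000 variable genes and clustered with 30 dimensions at resolution 0.3. The 8 genes, Sox9, and the listed genes were kept out of the variable genes. So were all collagen, Sox, Hox, Fos, Jun, matrilin, Hapln, and mitochondrial genes, with Xist and Tsix, which made 208 in all. Clusters were named where a marker list scored at least 0.5 and 3 of its markers were in at least 10% of the cells, except that cluster 6, which scored for smooth muscle and for cartilage, is called by its number. Scrublet (scanpy 1.11.5) called 4.94%, 0%, 2.19%, and 1.81% of cells doublets in the order of the report, so it had not worked in the Tbx1neo2/neo2 carrier library, and no cell was removed on its call. Python 3.11.15 with scipy 1.17.1 gave the sums and their intervals, and TMM factors with edgeR 4.0.16. The calling rule was also run on simulated Poisson counts, the model behind its intervals. That run holds no spread between cells or libraries, so it cannot show how the calls fare with either.

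Genes named were the 8 members, Sox9, at most the 4 genes of each list with the largest called ratio between the carriers, and, for likeness, up to the 5 genes with the highest r for each member with at least 200 mesenchymal UMIs; 1 result of this kind is not reported here. The genes set beside Acan and Matn4 in single cells (Cnmd, Mki67, Acta2, Eln, Hoxa7, and Scx) were chosen after values were seen. The members and lists were chosen with earlier results of these data known. Alternatives were another mitochondrial limit, doublet removal, no integration, resolution 0.6, classes per cell, TMM, means over cells, 2-fold calls, no UMI minimum, and other thinning.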

Additional observations from a re-analysis of the deposited data

Results flagged for a closer look

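In 4 cases a gene moved one way between libraries in mesenchymal cells and the opposite way in endothelial, epithelial, or hematopoietic cells, with neither counting interval reaching 0, and with 1 library per condition none of these differences was tested. Hapln1 in epithelial cells had a log2 ratio of -2.59 (-4.36 to -1.13) with minoxidil against the Tbx1neo2/neo2 carrier library, from 5 and 20 UMIs, against 0.52 in mesenchymal cells. In hematopoietic cells the same comparison of Hapln1 gave -3.55 (-4.83 to -2.48), from 8 and 61 UMIs. Comp in endothelial cells had a log2 ratio of 3.80 (2.30 to 5.76) with PGE2 against the Tbx1neo2/neo2 carrier library, from 32 UMIs in 8 of 99 cells and 4 UMIs in 4 of 245 cells, against -2.36 in mesenchymal cells. Epyc in epithelial cells had a log2 ratio of -3.97 (-5.65 to -2.65) with minoxidil against the Tbx1neo2/neo2 carrier library, from 5 UMIs in 5 cells and 52 UMIs in 7 cells, against 3.03 in mesenchymal cells.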

How the results depend on the processing

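No paired analysis was possible because each condition has 1 library and no replicate numbers are shared. No value changed its sign as a called result under any alternative. All 30 recomputed medians of the members stayed between the medians of the members' lower and upper bounds. That band is not an interval of the median and is wide, from 1.17 to 5.19 between the carriers, so this is a weak check. These counts include removal of Scrublet doublets, which took no cell from the Tbx1neo2/neo2 carrier library, a part of every comparison. Of 186 log2 ratios, 162 stayed within their intervals. Counts of called members have no interval, and 63 of 66 stayed within a factor of 1.5 of the reported count. That rule lets a single gene gain or lose a call, as Hapln1 did between the carriers at 5% mitochondrial UMIs. The exceptions among the counts were 2 members called higher in place of 1, with minoxidil when each cell took its class from its own marker UMIs, and with both minoxidil and PGE2 without clusters 6 and 9. Without those clusters the log2 ratio between the carriers was 7.09 for Acan and 4.03 for Matn4. The cause was not tested.

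The share of mesenchymal cells with at least 1 member moved with depth and threshold. At 10000 UMIs per cell, which left out 193, 1525, 23, and 37 cells, it was 15.2%, 47.5%, 16.4%, and 16.9%, without thinning 21.3%, 57.0%, 32.8%, and 30.2%, and with 2 UMIs required 1.23%, 27.7%, 1.52%, and 1.17%. At 5% mitochondrial UMIs it was 4.50% and 37.9% in the carriers, and with classes per cell 40.7% in the Tbx1neo2/neo2 carrier library. The share of member-positive cells with Sox9 in the Tbx1neo2/neo2 carrier library was 87.0% at 10000 UMIs (Acan 98.1%, Matn4 91.8%), 89.0% without thinning (98.4% and 93.4%), 78.9% with 2 UMIs required (84.6% and 79.8%), 86.9% at 5% mitochondrial UMIs (Acan 95.3%), and 82.0% with classes per cell (Matn4 86.0%). In the WT carrier library it was 25.1%, 37.6%, and 2.86% under the first 3 of these, with minoxidil 31.1%, 55.6%, and 13.3%, and with PGE2 31.7% without thinning. Sox9 detection in the other cells rises with depth too. Without thinning, Sox9 was found in 69.0% of Acan-negative cells of the Tbx1neo2/neo2 carrier library. In the WT carrier, minoxidil, and PGE2 libraries, where nearly all mesenchymal cells lack Acan, it was found in 31.9%, 45.4%, and 34.0% of them. The background as a share of the mesenchymal level in the Tbx1neo2/neo2 carrier library was 6.38% for Matn4 in erythroid cells, 15% for Acan and 11% for Matn4 in epithelial cells, 4.41% and 4.06% with classes per cell, and 5.60% and 3.10% without the 6% of cells with the highest doublet scores, an alternative chosen after seeing the data. TMM factors lay between 0.982 and 1.01. Depth limits Matn1, Matn3, and Comp, with at most 111 mesenchymal UMIs in any library.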

Other observations

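Epyc had UMIs in epithelial cells too, 157, 52, 5, and 162 in the order of the report, and these lay in 27, 7, 5, and 10 cells. In the PGE2 library this was 2.64 CPM (2.25 to 3.08), beside 4.84 CPM in its mesenchymal cells.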
